A study of Mus musculus with 9 samples.

Results

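The cardiac myosin genes encode the motor of the heart's thick filament and the proteins that sit on it. The 8 genes described here are Myh6, Myh7, Myl2, Myl7, Myl3, Myl4, Mybpc3 and Mylk3, and their features were selected by gene symbol in the platform's probe annotation. Of 45037 probe sets tested, 12 were annotated to 1 of these genes alone: 3 to Myl3, 2 each to Myh6 and Myl4, and 1 to each of the other 5 genes. A further 2 were annotated to both heavy chain genes and were assigned to neither. The measurements come from 9 one-colour arrays of mouse embryonic stem cell derived cardiomyocyte cultures at day 10, day 20 and day 30, with 3 arrays at each age, in a study of how far such cells mature in vitro. Cultures of all 3 ages were of 1 line, synp, made from R1 embryonic stem cells of 129X1 x 129S1 background, and all carried the gene for puromycin resistance (PAC) under the Ncx1 promoter. The cytokines VEGF, bFGF, FGF10, BMP4 and Activin A were used to differentiate all of them, and all received puromycin, which kills cells that do not make the resistance protein, from day 7. Results from 1 line and 1 selection scheme may not hold for other cardiomyocyte cultures. The labels count the days as after differentiation with selection, and they do not say whether arrays of an age came from separate cultures, so p-values measure the spread between these arrays, which may be technical.

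Each thick filament myosin is a pair of heavy chains, which hold the motor, with an essential and a regulatory light chain on the neck of each. In the mouse heart Myh7 (beta) is the main heavy chain of the fetal ventricle and Myh6 (alpha) that of the adult ventricle, while Myl2 and Myl3 are the ventricular regulatory and essential light chains and Myl7 and Myl4 the atrial and embryonic ones. Mybpc3, cardiac myosin-binding protein C, tethers the motor heads to the filament, and Mylk3 is the cardiac kinase that phosphorylates the regulatory light chain. These genes are commonly read as markers of chamber identity and of maturation in cultured cardiomyocytes.

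Myh6 and Myh7 are neighbours on chromosome 14, and each carries a microRNA within it. The arrays gave no value for these microRNAs, which are shown because they are made from the transcripts of the heavy chain genes. The sequences are mature forms from RefSeq (GRCm38.p6), with the seed, bases 2 to 8, in capitals.
mmu-miR-208a-3p, within Myh6, chr14:54949072-54949093, minus strand: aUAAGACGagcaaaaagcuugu
mmu-miR-208b-3p, within Myh7, chr14:54975710-54975731, minus strand: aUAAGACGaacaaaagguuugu
mmu-miR-499-5p, within Myh7b, chr2:155622893-155622913, plus strand: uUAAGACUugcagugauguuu
The 2 microRNAs of Myh6 and Myh7 share a seed and differ at 3 of 22 bases. The microRNA of Myh7b, another heavy chain gene of heart and slow muscle, differs from both by 1 base in the seed.

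The start regions of the heavy chain pair and of the regulatory light chain pair are shown because the comparisons within these pairs turn on these 4 genes. Each window runs from 250 bases before to 50 after a RefSeq start site (GRCm38.p6), and RefSeq gave 11 such windows for the 8 genes. Another window of Myh7, chr14:54994500-54994799, overlaps the one printed and is not shown. Capitals mark matches, on either strand, to the GATA factor site TGATAA or AGATAA, the TEAD factor element CATTCC, the thyroid receptor half-site AGGTCA, the T-box factor site AGGTGT or the TATA box TATAAA. E-boxes (CANNTG) were searched as well and are not capitalised, and no match overlapped another among the capitals.
Myh6 promoter, chr14:54966558-54966857, minus strand: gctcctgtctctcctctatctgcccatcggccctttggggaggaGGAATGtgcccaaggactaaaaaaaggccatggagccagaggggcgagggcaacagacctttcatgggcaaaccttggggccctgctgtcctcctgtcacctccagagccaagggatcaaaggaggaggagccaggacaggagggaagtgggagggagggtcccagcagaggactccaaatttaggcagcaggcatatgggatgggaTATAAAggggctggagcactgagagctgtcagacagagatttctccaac
Myh7 promoter, chr14:54994577-54994876, minus strand: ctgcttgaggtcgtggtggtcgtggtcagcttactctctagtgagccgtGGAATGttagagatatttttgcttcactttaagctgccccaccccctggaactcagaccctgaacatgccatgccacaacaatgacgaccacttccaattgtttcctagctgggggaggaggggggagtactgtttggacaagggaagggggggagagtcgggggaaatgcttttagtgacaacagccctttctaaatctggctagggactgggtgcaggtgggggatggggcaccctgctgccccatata
Myl2 promoter, chr5:122092474-122092773, plus strand: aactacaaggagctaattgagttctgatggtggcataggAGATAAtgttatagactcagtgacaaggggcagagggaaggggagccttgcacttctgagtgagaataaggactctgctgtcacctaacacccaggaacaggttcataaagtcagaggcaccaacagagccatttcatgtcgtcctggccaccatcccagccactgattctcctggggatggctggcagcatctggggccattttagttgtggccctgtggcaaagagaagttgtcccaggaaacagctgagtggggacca
Myl2 promoter, chr5:122092939-122093238, plus strand: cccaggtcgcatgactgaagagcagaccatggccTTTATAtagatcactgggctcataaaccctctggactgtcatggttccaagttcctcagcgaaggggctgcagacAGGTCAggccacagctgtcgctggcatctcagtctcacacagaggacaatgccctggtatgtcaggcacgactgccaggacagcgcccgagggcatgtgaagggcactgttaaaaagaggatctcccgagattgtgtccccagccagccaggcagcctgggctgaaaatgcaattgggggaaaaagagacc
Myl7 promoter, chr11:5898733-5899032, minus strand: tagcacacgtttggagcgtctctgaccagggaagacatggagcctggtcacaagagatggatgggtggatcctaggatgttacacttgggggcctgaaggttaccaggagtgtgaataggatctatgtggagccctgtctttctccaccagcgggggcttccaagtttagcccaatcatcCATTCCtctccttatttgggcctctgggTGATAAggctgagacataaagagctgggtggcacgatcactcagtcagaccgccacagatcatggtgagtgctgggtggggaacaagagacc
The TEAD element was found in 5 of the 11 windows, in Myh6, Myh7, Myl7, Myl3 and Mylk3, and in 14.7% of 32851 mouse windows of the same length. It began at -206 in Myh6, -201 in the Myh7 window shown and -70 in Myl7, with the start site as 0. The Myh7 window not shown held no TEAD element, and its only matches were 2 E-boxes. The GATA site TGATAA was found in Myl7 (at -42) and Mybpc3, against 9.05% of all windows, and the form AGATAA in Myl2 (at -211 of the first window shown) and Mylk3, against 11.2%. The thyroid half-site was found in 1 window, of Myl2, against 16.3%, and the T-box site in 0, against 13.7%. The TATA box letters were found in Myh6 (at 1) and in 1 window of Myl2 (at -216 of the second window shown), against 13.6% of all windows. E-boxes were in 9 of the 11 and in 72.3% of all windows. Each match is a run of letters and not a site shown to be used.

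None of the 12 probe sets passed the test between any 2 ages. The test was limma on the log2 signals, with Benjamini-Hochberg adjusted p-values across the whole set of 45037, and a call is an adjusted p under 0.05. Between day 30 and day 10 it called 0 of the 12, against 15.1% of all probe sets, and 0 had an unadjusted p under 0.05, against 29.3%. Between day 20 and day 10 it called 0, against 9.02%, with 1 under the unadjusted limit (Myh6), against 24.95%. Between day 30 and day 20 it called 0, against 0.135%, with 1 under the unadjusted limit (Myl4), against 9.32%. The F test over all ages called 0, against 11.9%. Over the 12 probe sets the median difference between day 30 and day 10 was 0.27 (log2), with 9 higher and 3 lower, while over all probe sets it was -0.05. Arrays of day 30 and day 10 did not overlap for 1 of the 12 (Myl2), against 32% of all probe sets. Arrays of 1 probe set did not overlap between day 20 and day 10 (Myh6 1448826_at, against 28.1%), and again 1 between day 30 and day 20 (Myl4 1422580_at, against 19%).

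Leaving out 1 array changed these counts. Without day 10 replicate 3, the test called 2 of the 12 between day 30 and day 10, against 20.3% of all probe sets in that fit, and 1 between day 20 and day 10, against 18.9%. Myh6 1448826_at passed in both (0.60, adjusted p = 0.033, for day 30 minus day 10, and 0.75, adjusted p = 0.016, for day 20 minus day 10), and Myh7 in the first (0.78, adjusted p = 0.021). Other arrays moved these values the other way. Myh6 1448826_at came to 0.19 (day 30 minus day 10) and 0.34 (day 20 minus day 10) with day 10 replicate 1 left out, and Myh7 to 0.34 (day 30 minus day 10) with day 10 replicate 2 left out. Of the 8 genes, each by its brightest probe set, 7 had their highest day 10 value in that array, and the exception was Myl4.

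**Figure D1:**
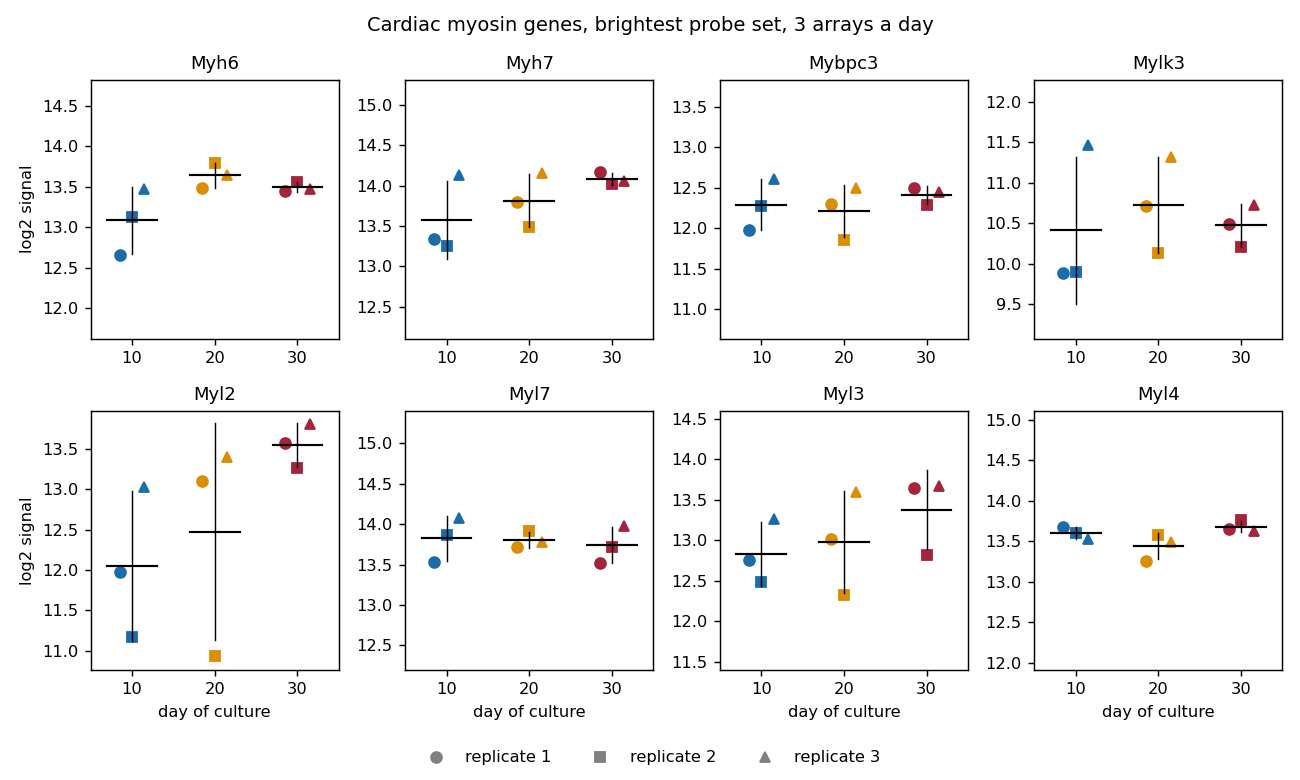
Log2 signal of the brightest probe set of each of the 8 genes against day of culture, 1 point per array, with the mean (bar) and SD (vertical line) of 3 arrays; every panel spans the same log2 range. The Myl2 arrays run from 10.93 to 13.80, the widest spread shown, and the Myl4 arrays stay between 13.26 and 13.76.

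The culture as a whole was checked with marker lists, since bulk arrays cannot tell fewer cells of a type from less RNA per cell. The mean log2 signal of 10 cardiomyocyte genes other than myosins lay between 10.75 and 11.56 in day 10 arrays, 11.59 and 11.90 in day 20 arrays, and 11.86 and 11.96 in day 30 arrays. Of these genes 2 rose between day 30 and day 10 (Tnni3 by 2.85 and Pln by 2.80) and none fell, and Tnnt2 and Actc1 were between 13.01 and 13.96 in all arrays. The mean of 10 fibroblast and matrix genes lay between 7.52 and 8.28 at day 10, 10.74 and 11.86 at day 20, and 12.14 and 12.40 at day 30, and 8 of the 10 rose between day 30 and day 10. Lists of endothelium (4.52 to 6.32), skeletal muscle (4.46 to 5.15) and pluripotent cells (3.97 to 6.32) had means under 6.63, the median over all genes, in all 9 arrays. The endothelium and pluripotent cell means were highest in day 10 replicate 3, at 6.32 each. Pluripotent cell means lay between 5.07 and 6.32 at day 10, and between 3.97 and 4.32 at the later ages. The mean of 8 smooth muscle genes lay between 9.54 and 10.52. Between day 30 and day 10, 5 of 6 pluripotent cell genes and 1 of 6 endothelial genes fell. In the same comparison 1 of 10 skeletal muscle genes rose (Ckm, also a gene of heart muscle, by 6.05), and of the smooth muscle genes 2 rose and 2 fell. Beside these counts, of all 18193 genes, each by its brightest probe set, 10.3% rose and 8.91% fell. The part of these lists in the myosin values was not tested.

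The heavy chain genes gave high signals at every age, and saturation at such levels could not be judged. Myh6, by its brighter probe set 1448826_at, measured 12.65, 13.13 and 13.47 at day 10, 13.48, 13.79 and 13.65 at day 20, and 13.45, 13.56 and 13.48 at day 30. All day 20 arrays lay above all day 10 arrays, by a small margin over replicate 3, and the day 30 arrays fell between 13.45 and 13.56. Its mean at day 20 exceeded that at day 10 by 0.55 (SE 0.19, adjusted p = 0.11, 95% interval 0.11 to 0.99), and the mean at day 30 exceeded that at day 10 by 0.41 (SE 0.19, adjusted p = 0.20, -0.03 to 0.85). Day 30 was 0.14 below day 20 on this scale (-0.14, adjusted p = 0.88). The day 10 arrays varied with an SD of 0.41, against 0.16 at day 20 and 0.06 at day 30 (n = 3 each).

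Myh7 measured 13.34, 13.25 and 14.13 at day 10, 13.80, 13.49 and 14.15 at day 20, and 14.16, 14.02 and 14.05 at day 30. The day 30 arrays were close together, while day 10 and day 20 each held 1 array, replicate 3, at the level of day 30. Its mean was 14.08 ± 0.08 at day 30 and 13.58 ± 0.48 at day 10 (SD, n = 3 each), a difference of 0.50 (SE 0.25, adjusted p = 0.22, 95% interval -0.07 to 1.07). The steps between neighbouring ages were 0.24 (adjusted p = 0.62) and 0.26 (adjusted p = 0.82).

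The dimmer Myh6 probe set gave another picture. Probe set 1417729_at measured 9.06, 10.11 and 10.96 at day 10, 10.54, 10.23 and 10.87 at day 20, and 10.50, 8.28 and 10.23 at day 30. Its lowest value was that of day 30 replicate 2, and day 30 minus day 10 gave -0.37 (SE 0.64, adjusted p = 0.76, 95% interval -1.84 to 1.09), against 0.41 for the brighter one. It turned to 0.32 when day 30 replicate 2 was left out and to 0.085 when day 10 replicate 3 was. Over the 9 arrays the 2 Myh6 probe sets correlated at r = 0.37, a description over arrays that share the ages. The mean of both gave 0.02 for day 30 minus day 10.

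Of the 2 probe sets annotated to both heavy chain genes, 1448827_s_at followed the dimmer Myh6 probe set (r = 0.98 over the 9 arrays), with 9.46 in day 30 replicate 2 and 10.27 to 12.16 elsewhere. The other, 1448554_s_at, lay between 13.25 and 14.10, and correlated at 0.87 with Myh6 1448826_at and at 0.89 with Myh7. Neither passed the test between day 30 and day 10 (-0.27, adjusted p = 0.84, and 0.41, adjusted p = 0.22). The beta-actin controls, read near both ends of the transcript as a check of RNA integrity and labelling, differed most in day 30 replicate 2, where the 3 prime signal exceeded the 5 prime one by 0.79 (log2), against 0.23 to 0.59 in the other arrays. Its Gapdh control difference was 0.06, against -0.22 to -0.14 elsewhere. Day 10 replicate 1, which had the second lowest value of 1417729_at, had the lowest beta-actin difference, 0.23. The part of RNA quality in the gap between the Myh6 probe sets was not tested.

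**Figure D2:**
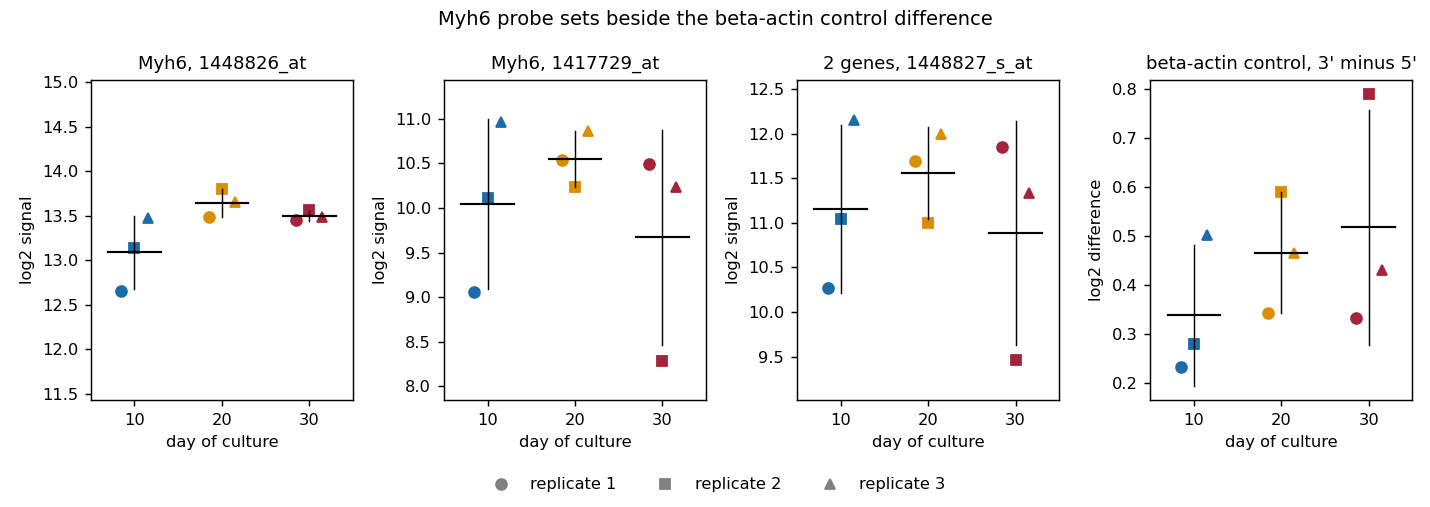
Log2 signal of both Myh6 probe sets and of 1448827_s_at, annotated to both heavy chain genes, beside the beta-actin control (log2 of the 3 prime over the 5 prime signal), against day of culture, with the mean (bar) and SD (line) of 3 arrays. Day 30 replicate 2 is the lowest array in both middle panels, at 8.28 and 9.46, and the highest in the control panel, at 0.79, while it stays with its group in the first.

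Mybpc3 and Mylk3 overlapped between all ages. Mybpc3 measured 11.98, 12.27 and 12.61 at day 10, 12.29, 11.86 and 12.49 at day 20, and 12.50, 12.28 and 12.45 at day 30. The day 20 arrays included the lowest value, and its largest difference between ages was 0.19, between day 30 and day 20 (adjusted p = 0.84, 95% interval -0.26 to 0.65). Between day 30 and day 10 the interval was -0.34 to 0.58 around 0.12 (adjusted p = 0.75).

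Mylk3 measured 9.88, 9.89 and 11.46 at day 10, 10.71, 10.13 and 11.31 at day 20, and 10.49, 10.20 and 10.72 at day 30. In every age replicate 3 was the highest array, and the ages overlapped. Day 30 and day 10 differed by 0.06 (SE 0.45, adjusted p = 0.95, 95% interval -0.98 to 1.10). It came to 0.58 when day 10 replicate 3 was left out and to -0.20 when day 10 replicate 1 was.

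Among the light chains, Myl2 had the largest difference between ages of the 12 probe sets and, at day 10 and day 20, the largest spread of the 8 genes by their brightest probe sets. It measured 11.97, 11.17 and 13.02 at day 10, 13.10, 10.93 and 13.40 at day 20, and 13.58, 13.26 and 13.80 at day 30. All day 30 arrays lay above all day 10 arrays, and the lowest value of all came from day 20 replicate 2. Its mean was 13.55 ± 0.27 at day 30 and 12.06 ± 0.93 at day 10 (SD, n = 3 each), a difference of 1.49 or 2.81-fold (SE 0.67, adjusted p = 0.18, 95% interval -0.05 to 3.03). Leaving out 1 array at a time gave 1.05 (without day 10 replicate 2) to 1.97 (without day 10 replicate 3), with no call (lowest adjusted p = 0.065). With a weight for each array it was 2.16 and passed (adjusted p = 0.036). Among the day 10 arrays, replicate 2, the lowest of them for Myl2, had a weight of 2.84, against 0.52 and 0.32 for replicates 1 and 3. The mean at day 20 was 12.48 ± 1.34 (SD, n = 3), and the differences of 0.42 (day 20 minus day 10) and 1.07 (day 30 minus day 20) did not pass (adjusted p = 0.76 and 0.71). With day 20 replicate 2 left out they came to 1.19 and 0.30.

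Myl7, the atrial partner of Myl2, measured 13.53, 13.86 and 14.08 at day 10, 13.72, 13.91 and 13.78 at day 20, and 13.52, 13.72 and 13.97 at day 30. The ages overlapped throughout, and day means lay between 13.74 and 13.82. Such levels are near the highest deposited value, 14.52, and saturation could not be judged. Day 30 and day 10 differed by -0.08 (SE 0.16, adjusted p = 0.79), with a 95% interval of -0.46 to 0.29. It turned to 0.043 when day 10 replicate 3 was left out and to 0.025 when day 30 replicate 1 was.

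Myl3, the ventricular essential light chain gene, was read by 3 probe sets that moved together (r = 0.983 to 0.996 over the 9 arrays). The brightest, 1427768_s_at, measured 12.76, 12.48 and 13.26 at day 10, 13.02, 12.33 and 13.59 at day 20, and 13.65, 12.82 and 13.67 at day 30. Within each age replicate 2 was the lowest and replicate 3 the highest array, as in Myl2. Day 30 and day 10 differed by 0.54 (SE 0.37, adjusted p = 0.38, 95% interval -0.30 to 1.38), and the other 2 probe sets gave 0.55 and 0.56. With the replicate number as a block, 1427769_x_at passed between day 30 and day 10 (0.56, adjusted p = 0.048, against 0.33 without the block). This probe set had the same order of replicates in each age, whereas over all probe sets same-numbered arrays of day 30 and day 10 did not deviate together.

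Myl4, the atrial and embryonic essential light chain gene, varied little, with an SD of 0.07 to 0.16 within an age for its brighter probe set. That probe set measured 13.68, 13.60 and 13.53 at day 10, 13.26, 13.57 and 13.49 at day 20, and 13.65, 13.76 and 13.63 at day 30. These values lie near the highest deposited value, 14.52, and saturation could not be judged. The day 30 arrays lay above the day 20 arrays and overlapped those of day 10. Day 30 exceeded day 20 by 0.24 (SE 0.10, adjusted p = 0.53, 95% interval 0.0047 to 0.47), and day 30 and day 10 differed by 0.08 (adjusted p = 0.68, -0.16 to 0.31). The dimmer probe set, 1457126_at, lay between 7.00 and 7.67 and gave 0.19 for day 30 minus day 20 (adjusted p = 0.81).

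**Figure D3:**
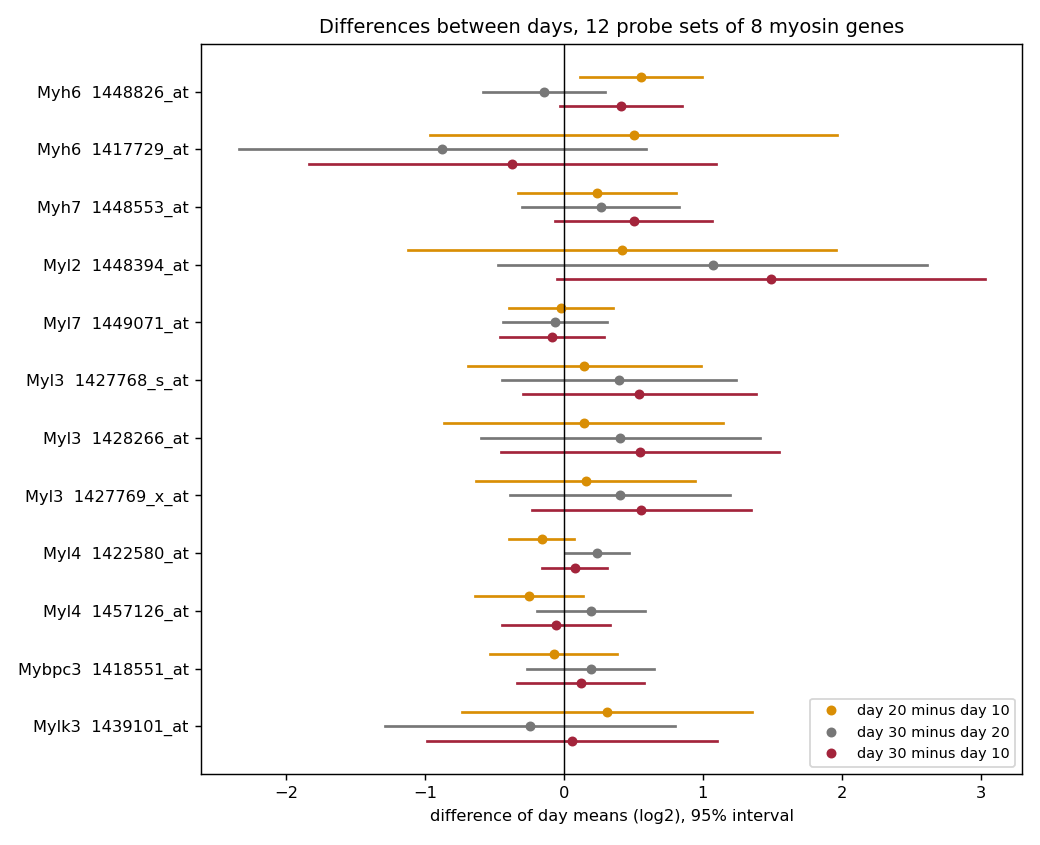
Difference of day means (log2) with its 95% interval for the 12 probe sets, each with day 20 minus day 10, day 30 minus day 20 and day 30 minus day 10 from top to bottom. Myl2 has the farthest point, 1.49, and the intervals of all probe sets include 0 except those of Myh6 1448826_at for day 20 minus day 10 and, by a margin of 0.0047, Myl4 1422580_at for day 30 minus day 20.

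The order of arrays within an age was shared by several of the genes. At day 20, replicate 2 was the lowest array for 5 of the 8 genes (Myh7, Myl2, Myl3, Mybpc3 and Mylk3) and the highest for the other 3 (Myh6, Myl7 and Myl4). At day 10, replicate 3 was the highest array for 7 of the 8, and at day 30, replicate 2 was the lowest for 5 and the highest for 2. For the 8 genes the median SD came to 0.40 (day 10), 0.33 (day 20) and 0.17 (day 30), against 0.19, 0.12 and 0.11 over 727 genes with a mean above 11. At each age the median of the 8 was above that of the genes of high signal, a description of these arrays. Mylk3, with a mean of 10.53, lay under that cut of 11, while the other members were among the 727.

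Same-numbered arrays of day 20 and day 30 deviated together over all probe sets, least in replicate 1 (r = 0.19). On this pairing, taken from these same data, their differences were also read within a number. Myl2 was higher at day 30 by 0.48, 2.33 and 0.41 in replicates 1, 2 and 3, and Myl3 1427768_s_at by 0.63, 0.49 and 0.08. Both probe sets of Myl4 were higher in 3 of 3 as well, and both of Myh6 lower in 3 of 3, with -0.03, -0.23 and -0.17 for 1448826_at. In all, 6 of the 12 probe sets were higher in every pair, 2 lower in every pair and 4 mixed. The 6 were those of Myl2, Myl3 and Myl4 alone, and probe sets of 1 gene are not independent. The matching share over all probe sets was not computed, so this count only describes the 12. A limma fit of these 2 ages with the number as a block called 0 of the 12 (lowest adjusted p = 0.19), with 5 of the 12 under an unadjusted p of 0.05, against 19.7% of all probe sets. It called 159 of all probe sets, against 5 in a fit of the same 2 ages without the block, whereas in the fit of all 9 arrays the block gave 2, against 61 without it.

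The paired forms of each chain were then compared as a difference within each array. For the light chains the ventricular form came first and the atrial and embryonic form was subtracted. For the heavy chains Myh7, the main form of the fetal ventricle, came first, and Myh6, that of the adult ventricle, was subtracted. Such a difference shows whether 2 probe sets changed unequally and not how much of each transcript there was. Myl2 minus Myl7 measured -1.56, -2.69 and -1.05 at day 10, -0.62, -2.98 and -0.39 at day 20, and 0.054, -0.46 and -0.17 at day 30. All day 30 arrays lay above all day 10 arrays, and day 20 replicate 2 was the lowest of the 9. The mean difference at day 30 exceeded that at day 10 by 1.57 (SE 0.79), and an exact permutation test of the F statistic over the 3 ages gave p = 0.19 (adjusted p = 0.47 over 3 pairs, n = 3 arrays an age). The smallest p that its 280 distinct groupings allow is 0.0036.

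Myh7 minus Myh6 measured 0.69, 0.12 and 0.66 at day 10, 0.32, -0.30 and 0.51 at day 20, and 0.71, 0.45 and 0.58 at day 30. The ages overlapped, with the lowest array again day 20 replicate 2, and the day 30 mean exceeded the day 10 mean by 0.09 (SE 0.26, exact permutation p = 0.31, adjusted p = 0.47). Without day 10 replicate 2 this difference was -0.093, and with both Myh6 probe sets averaged it was 0.48. Myl3 minus Myl4 averaged -0.77 ± 0.45 at day 10, -0.46 ± 0.70 at day 20 and -0.30 ± 0.56 at day 30 (SD, n = 3 each). Its ages overlapped, and the day 30 mean exceeded the day 10 mean by 0.47 (SE 0.47, exact permutation p = 0.56, adjusted p = 0.56).

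**Figure D4:**
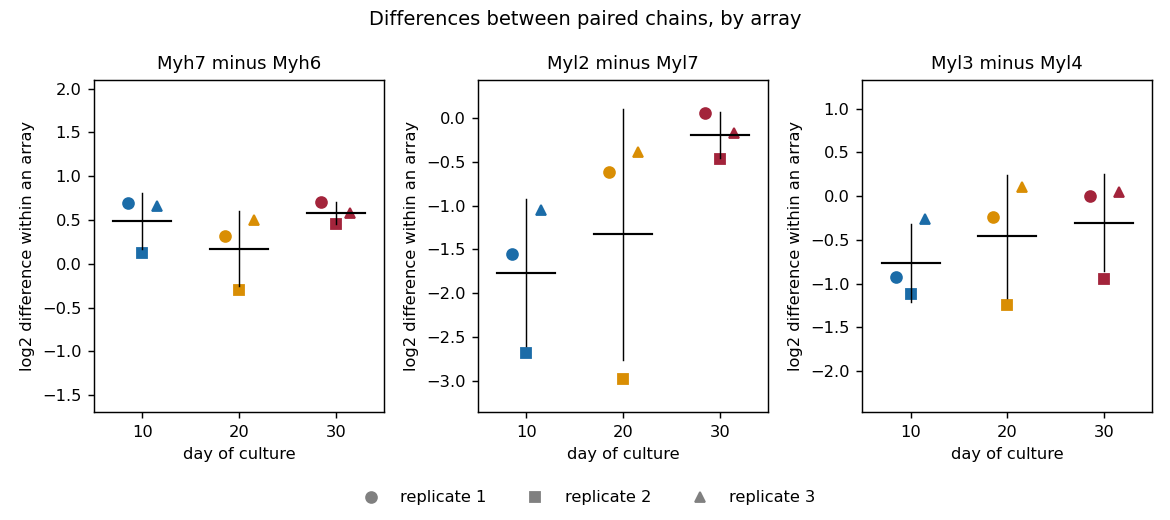
Difference of log2 signals within an array between the brightest probe sets of paired chains, against day of culture, with the mean (bar) and SD (line) of 3 arrays; every panel spans the same range. Day 20 replicate 2 is the lowest array in each panel, and only for Myl2 minus Myl7 do all day 30 arrays lie above all day 10 arrays.

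The genes whose level followed each member most closely over the 9 arrays were named by Pearson correlation among 9095 genes of above-median level. For Myl2 they were Ppp1r14c (r = 0.95, Spearman's rho = 0.93), which encodes an inhibitor of protein phosphatase 1, Npepl1 (r = 0.94, rho = 0.78) and Tcta (r = 0.91, rho = 0.67). For Myl3 they were Svip (r = 0.96, rho = 0.93), Smpx (r = 0.94, rho = 0.83), a small muscle protein gene, and Rab3gap1 (r = 0.91, rho = 0.78). Those of Myh7 were Rnpepl1 (r = 0.96, rho = 0.90), Syk (r = 0.96, rho = 0.80) and Npepl1 (r = 0.95, rho = 0.93). Those of Myh6 were Trmt2b (r = 0.99, rho = 0.78), Inafm2 (r = 0.98, rho = 0.98) and Rrad (r = 0.98, rho = 0.80). Myl7 was followed by Zfp58 (r = 0.91, rho = 0.83), Orc3 (r = 0.87, rho = 0.85) and Ephb3 (r = 0.85, rho = 0.77), and Myl4 by Cul5 (r = 0.92, rho = 0.83), Rnf14 (r = 0.92, rho = 0.98) and Slc25a26 (r = 0.91, rho = 0.77). Mybpc3 was followed by Klhl8 (r = 0.93, rho = 0.93), Nit1 (r = 0.93, rho = 0.87) and Gucd1 (r = 0.90, rho = 0.93), and Mylk3 by Dyrk2 (r = 0.94, rho = 0.92), Bik (r = 0.94, rho = 0.80) and Ascc1 (r = 0.93, rho = 0.87). These are the highest of 9095 correlations per member over 9 arrays that share the ages of the cultures, and they carry no test.

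Some other genes of myosin function passed the test between day 30 and day 10, each gene being read by its brightest probe set. Of all 18193 genes read this way, 10.3% rose and 8.91% fell. Between day 20 and day 10, over the 5 lists below together, 4 of 57 genes rose, against 6.31% of all genes, and 3 fell, against 5.3%. Between day 30 and day 20 limma called none of the 57 (4 had an unadjusted p under 0.05), against 0.154% rising and 0% falling among all genes. Of 10 measured myosin heavy chain genes outside the 8, 1 rose and 1 fell, with a median of 0.04 (-0.017 without day 10 replicate 1), against -0.03 over all genes. Myh8, the perinatal heavy chain of skeletal muscle, measured 6.29, 4.68 and 5.18 at day 30, against 3.31, 3.40 and 3.24 at day 10. Its day 30 arrays lay above those of day 10, with a rise of 2.07 (SE 0.36, adjusted p = 0.0081). Myh8 was dim, with means of 3.32 at day 10 and 5.38 at day 30, both under the lowest array median of 5.48. Myh10, a nonmuscle heavy chain, measured 11.92, 11.87 and 12.06 at day 30, against 12.98, 12.61 and 12.90 at day 10, and fell by 0.88 (SE 0.16, adjusted p = 0.0089). With its 2 probe sets averaged, Myh10 gave -0.81 and passed by a small margin (adjusted p = 0.0487). Myh7b differed by 1.07 (adjusted p = 0.18), and by 1.63 with adjusted p = 0.011 without day 10 replicate 3. Myh3 (-0.12, adjusted p = 0.54), the nonmuscle Myh9 (0.42, adjusted p = 0.48) and the smooth muscle Myh11 (1.16, adjusted p = 0.34) did not pass.

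Of 8 other light chain genes, none rose and 1 fell, with a median of 0.17. Mylpf, a fast skeletal regulatory light chain, measured 6.79, 6.92 and 6.61 at day 30, against 7.69, 8.01 and 7.87 at day 10, and fell by 1.08 (SE 0.19, adjusted p = 0.0088). Myl1, the fast skeletal essential light chain, ranged from 9.88 to 12.29 at day 30 and from 9.21 to 11.20 at day 10 (0.68, adjusted p = 0.59). Myl9, of smooth muscle and nonmuscle myosin, differed by 0.35 (adjusted p = 0.38). Myl6, the essential chain of the same myosins, differed by 0.68 (adjusted p = 0.31), and by 1.22 with adjusted p = 0.0037 without day 10 replicate 3, where 2 genes of the list passed.

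Of 11 other myosin-binding protein, light chain kinase and phosphatase genes, 3 rose and none fell, with a median of 0.02 (-0.07 with day 30 replicate 2 left out, 0.25 with day 10 replicate 3 left out and -0.13 with probe sets averaged). Mylk, the smooth muscle and nonmuscle light chain kinase, measured 7.60, 9.59 and 9.11 at day 30, against 4.40, 4.88 and 5.03 at day 10. The ages did not overlap, and the rise was 3.996 (SE 0.54, adjusted p = 0.0029), or 2.89 when its 3 probe sets were averaged. Mylk4, a further kinase of the family, rose by 1.39 (adjusted p = 0.0070). Its means, 3.79 at day 10 and 5.18 at day 30, both lay under the lowest array median of 5.48. Ppp1r12b, a myosin phosphatase subunit, rose by 1.04 (adjusted p = 0.035), but the call was lost without each of 7 arrays (highest adjusted p = 0.11) and when its 4 probe sets were averaged (0.30, adjusted p = 0.32). In the same arrays the fibroblast and matrix list rose as given above, and its part in these changes was not tested.

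Of 8 genes of myosin folding and turnover, none rose and 2 fell, with a median of -0.31. Unc45b, the chaperone that folds the myosin head in striated muscle, measured 10.93, 10.32 and 10.64 at day 30, against 11.67, 12.01 and 11.91 at day 10. Its ages did not overlap, and it fell by 1.23 (SE 0.20, adjusted p = 0.0063). Hsp90aa1, the heat shock protein that works with it, fell by 0.81 (adjusted p = 0.016), but leaving out either day 10 replicate 2 or day 30 replicate 1 ended the call (adjusted p up to 0.057), and 1 gene of the list then passed.

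Of 20 genes of factors known to act on cardiac myosin genes, 6 rose and 1 fell, with a median of 0.30 (0.02 without day 10 replicate 1). The rises were those of Nr2f2, an atrial regulator (1.27, adjusted p = 0.0039, or 0.60 with its 6 probe sets averaged), Mef2a (1.30, adjusted p = 0.0060), the thyroid hormone receptor genes Thrb (0.65, adjusted p = 0.0091) and Thra (1.16, adjusted p = 0.024), their partner Rxra (0.81, adjusted p = 0.022) and the ventricular Irx4 (2.14, adjusted p = 0.032). Thra measured 10.74, 10.71 and 10.39 at day 30, against 8.78, 9.84 and 9.76 at day 10. Thrb was dim, with means of 5.31 at day 30 and 4.66 at day 10, under the lowest array median of 5.48. Purb, a repressor of Myh6, fell by 0.94 (adjusted p = 0.032). Of the 20 genes, 4 passed without day 10 replicate 1 or without any 1 of the day 30 replicates. Thra, Rxra, Irx4 and Purb each lost the call without 2 to 6 of the arrays (highest adjusted p = 0.077, 0.077, 0.10 and 0.083), and Rxra when its probe sets were averaged (0.31, adjusted p = 0.068). Tbx5 differed by 0.55 (adjusted p = 0.56).

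**Figure D5:**
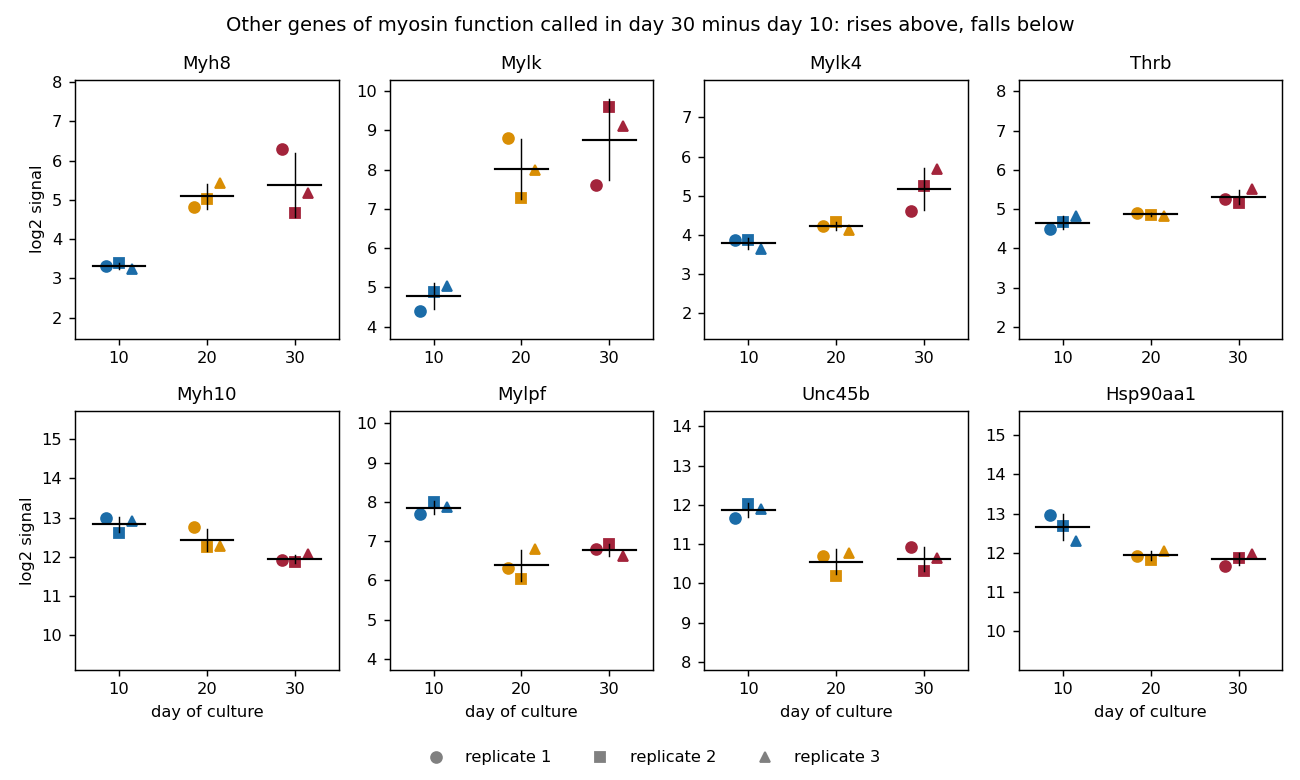
Log2 signal of 8 other genes called between day 30 and day 10, against day of culture, with the mean (bar) and SD (line) of 3 arrays; every panel spans the same range. The upper row holds genes that rose, with Mylk at 4.40 to 5.03 at day 10 and 7.60 to 9.59 at day 30, and the lower row genes that fell, by 0.81 to 1.23.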

How the data were processed

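Total RNA of 9 samples was hybridised to 9 one-colour arrays; groups and replicate numbers came from the sample labels. The authors deposited 1 log2 signal for each probe set of each array; the base of the logarithm was inferred from the values (2.77 to 14.52), and how they were summarised and normalized is not given in the sources used here. Array medians lay between 5.48 and 5.56, and the values were used as deposited. The number of arrays limits the precision, and background and saturation could not be judged per probe.

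Of 45101 probe sets, 64 array controls were left out. Symbols came from the platform annotation: 34945 of the rest had 1, 932 several and 9160 none, and only the first kind was named. All 8 member symbols matched the RefSeq table. The model, a mean for each day over the 9 arrays, used limma 3.58.1 under R 4.3.3; eBayes added 2.19 prior degrees of freedom to the 6 residual ones. Tests were two-sided. For lists, a gene is its probe set with the highest mean. Named genes are every member, the first 6 called genes per list by adjusted p, 14 others and, per member, the 3 genes of highest Pearson r. Irx4, the seventh call of its list, and the marker genes Tnni3, Pln, Tnnt2, Actc1 and Ckm were named after their values were seen. The fit was tested on simulated data.

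The members and lists were chosen with earlier results of these data known. Same-numbered arrays of day 20 and day 30 deviated together (r = 0.19 to 0.50, against -0.45 to 0.18 for other pairs), whereas those of day 10 and day 20 (-0.01 to 0.15) and of day 10 and day 30 (-0.22 to -0.03) did not. Deviations within a day sum to 0, so the r of same-numbered pairs and of other pairs are not independent. For replicate 1 the same-numbered r of 0.19 was close to the 0.18 of day 20 replicate 1 with day 30 replicate 3. The pairing of day 20 and day 30 comes from this check and not from the labels. Alternatives were other normalizations, a filter on dim probe sets, other units of the fit, array weights, another prior, fits of the days compared, the replicate block and leaving out each array. The block within day 20 and day 30 was chosen after seeing the data.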

Additional observations from a re-analysis of the deposited data

How the results depend on the processing

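Of 636 values of the members' differences over 36 results and 19 settings, 602 kept their direction and side of the threshold, 7 newly passed it and 27 changed sign; the cause was not tested for either. The count of called probe sets, 0 as reported in each comparison, was 1 (day 20 minus day 10), 2 (day 30 minus day 10) and 1 (F test) with array weights, a setting that called 24.2%, 25.5% and 26.8% of all probe sets, against 9.02%, 15.1% and 11.9%. Those called were Myh6 1448826_at (0.56, adjusted p = 0.016) between day 20 and day 10, and Myh7 (0.74, adjusted p = 0.027) and Myl2 (2.16, adjusted p = 0.036) between day 30 and day 10. With the replicate block over all 9 arrays it was 1 between day 30 and day 10 (Myl3 1427769_x_at, 0.56, adjusted p = 0.048), and the block changed no other call of a member. The table then held 3837 calls between day 20 and day 10, 2 between day 30 and day 20 and 6444 between day 30 and day 10, against 4062, 61 and 6813 without it. Leaving out 1 array gave 0 to 1 calls between day 20 and day 10, 0 between day 30 and day 20, 0 to 2 between day 30 and day 10 and 0 to 2 by the F test. Of all probe sets, in the same order, those fits called 3.17% to 18.9%, 0.0133% to 0.218%, 9.25% to 20.3% and 6.53% to 20%.

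Of the other lists, leaving out 1 array gave 2 to 3 calls among heavy chain genes, 1 to 2 among light chain genes, 2 to 3 among binding protein and kinase genes, 1 to 2 among folding genes and 4 to 7 among regulators. Myh7 minus Myh6 ran from -0.093 to 0.19 for day 30 minus day 10, Myl2 minus Myl7 from 1.11 to 1.93 and Myl3 minus Myl4 from 0.29 to 0.79. Quantile normalization turned the day 20 minus day 10 value of Myl7 to 0.044, and array weights the day 30 minus day 10 value of Myl4 1457126_at to 0.028. When 1 array was left out, signs turned for day 20 minus day 10 in Myl2 (-0.041 to 1.19), Myl7 (-0.17 to 0.11), Myl3 (-0.16 to 0.47, -0.21 to 0.52 and -0.13 to 0.49 for its 3 probe sets) and Mybpc3 (-0.23 to 0.11). They turned for day 30 minus day 20 in Myl7 (-0.18 to 0.043) and Mylk3 (-0.54 to 0.050). They turned for day 30 minus day 10 in Myh6 1417729_at (-0.87 to 0.32), Myl7 (-0.23 to 0.043), Myl4 1457126_at (-0.14 to 0.045), Mybpc3 (-0.033 to 0.28) and Mylk3 (-0.20 to 0.58). No per-probe background was used, so low signals could not be told from background.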
